A study of Mus musculus with 6 samples.

Results

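The comparison set lateral amygdala RNA of mice given a small interfering RNA (siRNA) against Baf53b beside RNA of mice given a siRNA of scrambled sequence, with 2 libraries in each group. Its members were the genes with a mean of at least 1 FPKM (fragments per kilobase of transcript and per 1 M mapped) over these 4 libraries, spike-in rows left out. They numbered 15092 of 50383 gene IDs. A further 334 small RNA genes and 4 genes whose estimate had failed in control were set aside, so 14754 genes were tested. All animals were male mice of the 129xC57BL/6 hybrid strain, 2 to 3 months old. The Baf53b siRNA was injected 1 day after training. For the scrambled siRNA the labels give no day of injection relative to training. Another group of 2 libraries, named control, is shown beside the siRNA groups. The labels do not give its treatment, nor do the sources used here give the siRNA sequences, the doses or the time from injection to dissection. Tissue from 4 mice is mentioned, but not whether a library holds a pool of animals, so p-values measure the spread between these libraries, which may be technical.

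Had counting error alone set the deposited intervals, their widths would equal those of 6.43 M to 10.7 M fragments for the genes of 1 library. This number is no read count and did not rise in step with level. For Gfap it was 617 at 16.9 FPKM in control replicate 1 and 1952 at 169.9 FPKM in Baf53b replicate 1. Mitochondrially encoded genes made up 15.0% to 29.5% of the summed FPKM, and the 2 scrambled siRNA libraries spanned 15.0% to 26.9%. The synthetic spike-in rows summed to 207 and 656 FPKM under scrambled siRNA and to 4825 and 811 FPKM under Baf53b siRNA. The part of these quantities in the results was not tested. Camk2a, a kinase gene of forebrain excitatory neurons, stood between 880.1 and 1115 FPKM in the 6 libraries, and Slc17a6, a glutamate transporter gene of excitatory neurons, between 12.03 and 14.6 FPKM. Prkcd, a kinase gene used as a marker of the neighbouring central amygdala and of thalamus, was at 4.51 and 4.37 FPKM under scrambled siRNA and at 6.28 and 8.93 FPKM under Baf53b siRNA (limma adjusted p = 0.797). It had the largest rise of 10 tested striatal and central amygdala markers, whose median log2 difference was 0.01. In 1 of the 10 both Baf53b libraries lay above both scrambled ones and in 3 below, beside 13.4% and 8.97% of all genes. In bulk tissue, fewer cells of a type and less RNA per cell cannot be told apart.

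BAF53b, encoded by Actl6b, is a subunit of the BAF chromatin remodelling complex of neurons. A siRNA guides cleavage of matching messenger RNA, and a scrambled siRNA serves as a control for injection and for the presence of a short double-stranded RNA. Brain tissue can answer injury and foreign RNA through interferons, whose receptors signal to transcription factors that raise genes for antigen presentation, intracellular defence GTPases and complement. Microglia, astrocytes and incoming leukocytes all take part in that answer. Class I molecules present peptides from inside a cell and class II molecules present peptides taken up from outside, mostly in microglia and other phagocytes.

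The upstream sequences of 5 genes that were higher under Baf53b siRNA are shown, because 4 of them hold the core of the interferon-stimulated response element and the fifth holds the CCAAT box known from class II promoters. They are the 250 bases before the start site on the gene's own strand, from RefSeq on GRCm38.p6, with the motif letters in capitals. The windows are Irgm1 at chr11:48871421-48871670 (minus strand), Tgtp2 at chr11:49064213-49064462 (minus), Gbp2 at chr3:142620413-142620662 (plus), Cybb at chrX:9469325-9469574 (minus) and H2-Eb1 at chr17:34305617-34305866 (plus).
Irgm1: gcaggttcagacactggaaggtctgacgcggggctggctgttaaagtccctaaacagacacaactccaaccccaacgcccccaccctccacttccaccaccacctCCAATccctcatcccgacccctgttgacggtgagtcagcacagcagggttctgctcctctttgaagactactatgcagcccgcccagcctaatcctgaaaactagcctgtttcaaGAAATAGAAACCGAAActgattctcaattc
Tgtp2: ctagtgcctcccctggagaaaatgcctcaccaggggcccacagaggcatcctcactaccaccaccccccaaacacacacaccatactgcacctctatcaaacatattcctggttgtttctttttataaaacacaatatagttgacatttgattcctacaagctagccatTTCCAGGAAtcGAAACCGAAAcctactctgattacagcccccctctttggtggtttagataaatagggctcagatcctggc
Gbp2: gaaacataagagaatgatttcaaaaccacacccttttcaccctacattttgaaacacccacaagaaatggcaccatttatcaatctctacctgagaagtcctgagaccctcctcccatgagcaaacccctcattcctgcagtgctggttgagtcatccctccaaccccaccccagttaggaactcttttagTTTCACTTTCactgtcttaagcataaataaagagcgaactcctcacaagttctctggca
Cybb: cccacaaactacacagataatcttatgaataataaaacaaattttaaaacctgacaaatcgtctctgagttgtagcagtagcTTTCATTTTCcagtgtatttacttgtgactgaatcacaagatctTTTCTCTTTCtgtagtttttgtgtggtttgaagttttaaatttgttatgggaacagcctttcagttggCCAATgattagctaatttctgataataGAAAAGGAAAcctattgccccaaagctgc
H2-Eb1: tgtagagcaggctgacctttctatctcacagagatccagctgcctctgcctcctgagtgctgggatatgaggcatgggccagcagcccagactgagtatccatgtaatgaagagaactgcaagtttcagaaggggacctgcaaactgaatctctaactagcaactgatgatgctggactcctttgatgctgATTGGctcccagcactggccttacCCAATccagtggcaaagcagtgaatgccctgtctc
The 3 motifs were searched on both strands from 250 bases before to 50 bases after each start. Of the 21 genes called below, 14 had such a window. The letters GAAA, then any pair of bases, then GAAA stood in a window of 4 of these 14 genes (28.6%) and in 1131 of all 32851 windows (3.44%). Here and below the first share counts genes and the second single windows, so they are not like measures. In Irgm1 they began at positions -30 and -24 from the start, where the matches overlap, in Tgtp2 at -70, in Gbp2 at -59 and in Cybb at -168, -124 and -29. The gamma-activated site TTCNNNGAA stood in a window of 2 of 14 genes (14.3%, Tgtp2 at -81 and Gfap at -2) and in 8.3% of all windows. The box CCAAT stood in a window of 7 of 14 genes (50%) and in 37.4% of all windows. A match describes the letters and is not a measured binding site.

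The targeted transcript was examined first. Actl6b (ENSMUSG00000029712.14, mm10 chr5:137553517-137569582, plus strand, protein coding) was at 43.8 and 43.9 FPKM under scrambled siRNA against 42.8 and 39.6 FPKM in those labelled Baf53b siRNA. Both labelled libraries lay below both scrambled ones, with a difference of -0.09 on the log2 scale (SE 0.12, 95% interval -0.38 to 0.21, limma adjusted p = 1). By an exact permutation test, two-sided, p was 0.333, the lowest that 2 libraries against 2 allow. A fall was therefore not detectable, and all directions below refer to the libraries as labelled. None of 30 BAF subunits was called. Their differences ran from -0.14 to 0.22 with a median of -0.02, beside a median of 0.0035 over all genes tested. The libraries did not overlap and were lower in 4 of the 30, beside 8.97% of all genes, among them Brd7, a bromodomain subunit, at 29.5 and 26.4 FPKM under scrambled siRNA and 25.4 and 25.5 FPKM under Baf53b siRNA.

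Over all 14754 genes, 21 rose under Baf53b siRNA against scrambled siRNA (0.142%) and 0 fell (0.0%) at an adjusted p under 0.05 in limma. The 21 were genes of antigen presentation, interferon-inducible GTPases, complement and phagocyte genes, the antiviral gene Oasl2, the astrocyte filament gene Gfap, 1 immunoglobulin segment and 2 annotated pseudogenes. At an unadjusted p under 0.05 there were 423 higher (2.87%) and 54 lower genes (0.366%). Differences above 1 on the log2(FPKM + 1) scale were seen for 105 genes (0.712%) and below -1 for 30 (0.203%). Both Baf53b libraries lay above both scrambled libraries in 1971 genes (13.4%) and below both in 1323 (8.97%). This scale understates the fold change of genes with low FPKM. The plot of all genes shows that the points far from 0 at middle levels lie mostly on the higher side.

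**Figure D1:**
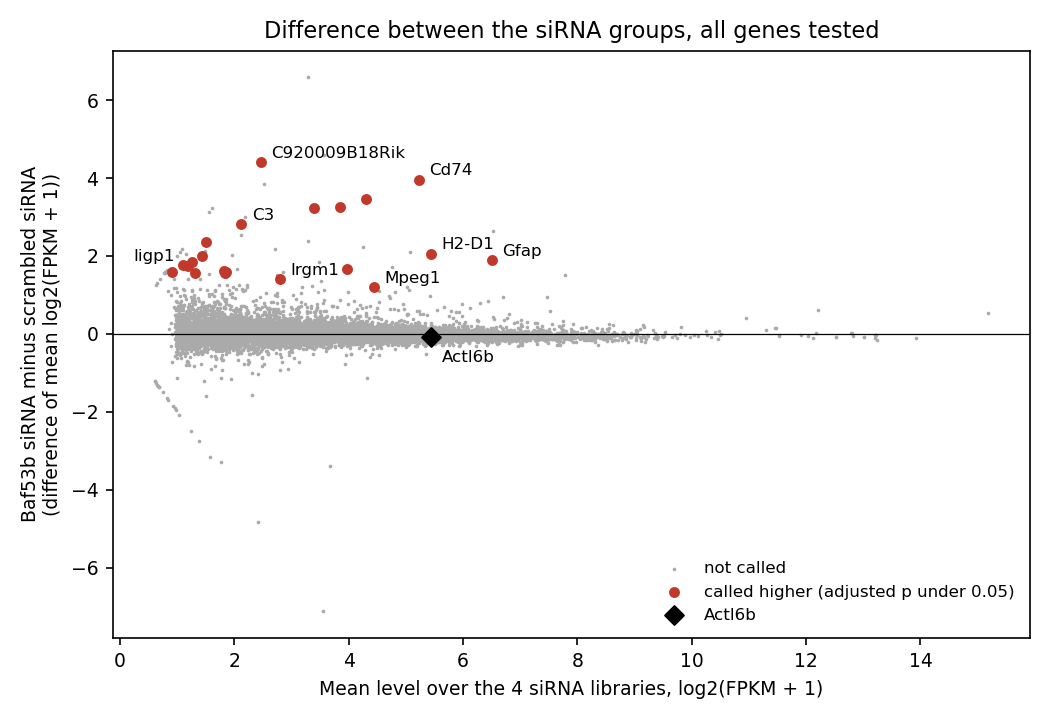
Each point is 1 of the 14754 genes tested: the x axis gives its mean level over the 4 siRNA libraries and the y axis its difference between Baf53b siRNA and scrambled siRNA, both in log2(FPKM + 1). The 21 called genes (red) all lie above 0, and Actl6b (black diamond) lies at -0.09.

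The count depended on single libraries. It was 8 without control replicate 1 and 8 without control replicate 2, 7 without scrambled siRNA replicate 1 (5 of them lower), 12 without scrambled siRNA replicate 2 (8 of them lower), 14 without Baf53b siRNA replicate 1 and 37 without Baf53b siRNA replicate 2. In the other four fits the calls were higher, except 1 lower gene in each but the last. Of the 21 genes, 6, 6, 2, 3, 5 and 13 were among those calls in the same order. Control libraries enter this comparison only through the estimate of the spread. C3 and the pseudogene C920009B18Rik passed in each of the 6 fits, with adjusted p of 0.0370 or less and 0.0234 or less in limma. Gfap passed in 5 and stood at an adjusted p of 0.0545 without scrambled siRNA replicate 1 (limma). Cd74 passed in 4 and H2-D1 in 3. For 7 genes (Gbp6, Oasl2, Igkv1-117, Psmb9, Mpeg1, Irgm1 and Gbp2) the call was lost in each of these fits in which the gene was tested (4 for Igkv1-117, 6 for the others), with the lowest adjusted p between 0.0523 and 0.0548 in limma. The direction of each of the 21 was the same in all of these fits in which it was tested.

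What the scrambled libraries already showed was read from the control libraries, which share the scrambled libraries with the main comparison. In scrambled siRNA against control 0 genes passed in either direction (0.0%; limma), with 316 higher (2.14%) and 23 lower (0.156%) at an unadjusted p under 0.05. Both scrambled libraries lay above both control libraries in 18 of the 21 genes, and in 1940 of all 14754 genes. The other 3, where these groups overlapped, were Irgm1, Tgtp2 and C920009B18Rik. In 13 of the 21 the scrambled minus control difference was under 0.8, and in 8 it was above 0.8. These 8 were Cd74, H2-Aa, H2-Eb1, H2-Ab1, H2-D1, Gfap, C4b and Mpeg1. This division follows the level of a gene as well as its change, since log2(FPKM + 1) compresses low values: the means of Cst7 (0.0701 and 0.265 FPKM in control and scrambled siRNA) and Oasl2 (0.338 and 1.01 FPKM) fall among the 13.

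A contrast added after the data were seen asked whether the step from scrambled to Baf53b siRNA differed from the step from control to scrambled siRNA. No gene passed it (0.0%; the lowest limma adjusted p was 0.394, for C920009B18Rik), with 99 positive (0.671%) and 76 negative (0.515%) at an unadjusted p under 0.05. An unequal step was thus not shown for any single gene. The 21 genes were called on the later of these steps, so their own values for this contrast are not independent of the call. Of them, 16 had an unadjusted p under 0.05 for it in limma, a count that this choice of genes favours.

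**Figure D2:**
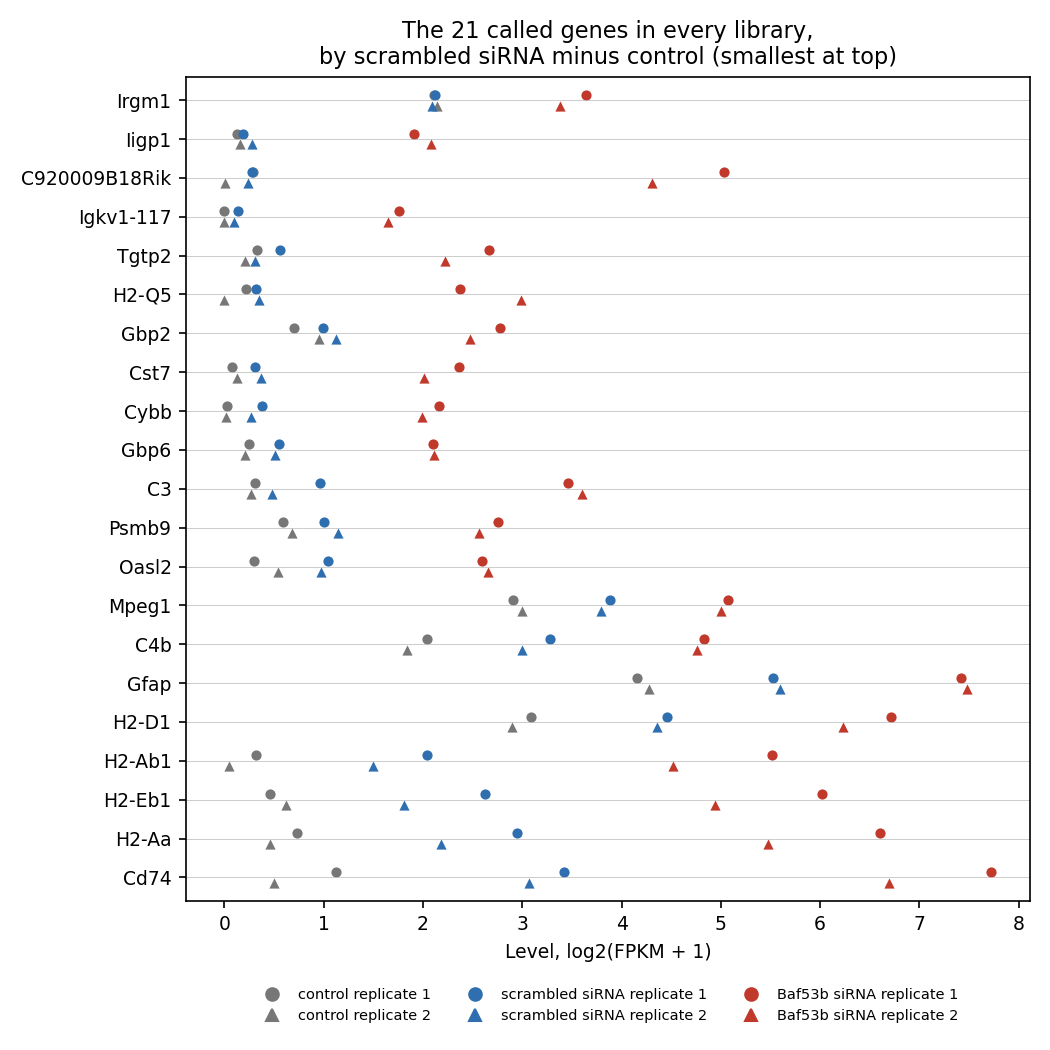
Levels of the 21 called genes in each of the 6 libraries on the x axis in log2(FPKM + 1), 1 row per gene, ordered by the scrambled minus control difference (smallest at top); grey is control, blue scrambled siRNA and red Baf53b siRNA, circles replicate 1 and triangles replicate 2. Red lies to the right of blue in every row, while blue lies on grey for Irgm1 and far to its right for Cd74.

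The interferon-inducible GTPases are intracellular defence proteins that act on the vacuoles of microbes, and 5 of their 11 tested members rose. All 11 lay higher in both Baf53b libraries than in both scrambled ones, with differences from 0.70 to 2.01, a median of 1.41 and a median scrambled minus control difference of 0.24. Over all genes, 13.4% were higher and 8.97% lower without overlap and 0.142% were called higher, shares that apply to all such counts below. The other 7 of the 18 listed were below the filter, which genes low under scrambled siRNA pass only through the Baf53b libraries, so counts and medians over tested members here and below are descriptions. Irgm1 (ENSMUSG00000046879.7, mm10 chr11:48861968-48871683, minus strand), a regulator of the family, was at 3.32 and 3.42 FPKM in control, 3.34 and 3.25 under scrambled siRNA and 11.5 and 9.38 under Baf53b siRNA. Control and scrambled libraries overlapped, and the Baf53b libraries stood apart. The mean went from 3.29 ± 0.0624 to 10.4 ± 1.47 FPKM (SD, n = 2). The log2 difference was thus 1.41 (SE 0.16, limma adjusted p = 0.0339), against -0.03 between scrambled siRNA and control.

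Tgtp2 (ENSMUSG00000078921.3, chr11:49057194-49064206, minus strand), another interferon-inducible GTPase, had 0.258 and 0.152 FPKM in control, 0.477 and 0.238 under scrambled siRNA and 5.32 and 3.68 under Baf53b siRNA (log2 difference 2.01, SE 0.21, limma adjusted p = 0.0288). Iigp1, which loads onto parasite vacuoles, was at 0.137 and 0.210 FPKM under scrambled siRNA and at 2.76 and 3.22 under Baf53b siRNA, with 0.0903 and 0.113 in control. For both, scrambled libraries stayed under 0.5 FPKM. The guanylate-binding proteins coat invading microbes. Of these, Gbp6 went from 0.465 and 0.427 FPKM under scrambled siRNA to 3.27 and 3.33 under Baf53b siRNA, and Gbp2 (ENSMUSG00000028270.12, chr3:142620602-142638008, plus strand) from 0.995 and 1.18 to 5.87 and 4.54. Gbp2 was the least stable call, lost in 14 of 17 settings in which it was tested. Near-identical copies exist in the Gbp and Tgtp families, so the split of reads among them is uncertain.

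Class II antigen presentation showed the largest differences of any called coding genes, and here the scrambled libraries already stood above control. Of 10 tested members 4 rose, and all 10 were higher without overlap (differences 0.56 to 3.96, median 1.03, median scrambled minus control 0.64). The summed FPKM of the whole list of 14 was 17.3 and 11.9 in control, 41.6 and 29.1 under scrambled siRNA and 450.2 and 222 under Baf53b siRNA. Cd74, the invariant chain that guides class II molecules to their peptides, was at 1.18 and 0.416 FPKM in control, 9.74 and 7.37 under scrambled siRNA and 211 and 102 under Baf53b siRNA. Each group stood above the one before, without overlap. The log2 difference was 3.96 between the siRNA groups (95% interval 3.11 to 4.81) and 2.43 between scrambled siRNA and control (limma adjusted p = 0.0288 and 0.330).

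The alpha chain gene H2-Aa was at 0.660 and 0.377 FPKM in control, 6.69 and 3.54 under scrambled siRNA and 95.9 and 43.4 under Baf53b siRNA. The beta chain gene H2-Eb1 (ENSMUSG00000060586.10, chr17:34305877-34316199, plus strand) was at 5.16 and 2.51 FPKM under scrambled siRNA and 64.0 and 29.7 under Baf53b siRNA (log2 difference 3.26, SE 0.39, limma adjusted p = 0.0497). In all 4 called class II genes, replicate 1 was the higher library in both siRNA groups. Ciita, the coactivator that switches class II genes on, was under the filter and was looked up after the other values were seen. It was at 0.0494 and 0.0612 FPKM under scrambled siRNA and at 0.609 and 0.547 under Baf53b siRNA.

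Class I heavy chains and peptide loading genes were higher in 17 of 22 members without overlap, of which 2 rose by the test (H2-D1 and Psmb9). Their median difference was 1.11, against 0.26 between scrambled siRNA and control, and all 22 were higher in Baf53b replicate 1 than in replicate 2. H2-D1 (ENSMUSG00000073411.11, chr17:35262730-35267499, plus strand), a classical heavy chain, had 7.48 and 6.43 FPKM in control, 21.04 and 19.4 under scrambled siRNA and 104 and 73.9 under Baf53b siRNA. The 3 groups did not overlap. The second step (2.06, SE 0.19) and the first (1.42) differed by 0.64 (limma unadjusted p = 0.0881), so a difference between the steps was not shown. H2-D1 was thus not among the 16 of 21 called genes with an unadjusted p under 0.05 for this contrast. Psmb9, a subunit of the immunoproteasome that cuts peptides for class I, went from 1.00 and 1.21 FPKM under scrambled siRNA to 5.74 and 4.90 under Baf53b siRNA.

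Several partners of H2-D1 lay just outside the threshold. B2m, the light chain, was at 56.9 and 74.7 FPKM in control, 128 and 132 under scrambled siRNA and 425 and 326 under Baf53b siRNA (limma adjusted p = 0.0511). The peptide transporter gene Tap1 was at 1.24 and 1.10 FPKM under scrambled siRNA and 5.54 and 4.52 under Baf53b siRNA, and the heavy chain H2-Q4 at 1.91 and 2.24 and at 16.7 and 9.96 (limma adjusted p = 0.0506 for both). H2-Q5, a related gene annotated as a polymorphic pseudogene, was called, but its deposited intervals were as wide as those of 1.83 and 3.99 fragments in the Baf53b libraries. The H2 genes are close copies of each other, and their individual values are uncertain. On chromosome 17 between 34 and 36 Mb, the region of the histocompatibility complex, 84 genes were tested, 7 were called and 34 were higher without overlap, beside 0.142% and 13.4% of all genes.

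Among antiviral interferon-stimulated genes 1 of 16 tested rose, Oasl2, a relative of the oligoadenylate synthetases that sense double-stranded RNA. It was at 0.226 and 0.450 FPKM in control, 1.07 and 0.957 under scrambled siRNA and 5.02 and 5.29 under Baf53b siRNA (log2 difference 1.61, limma adjusted p = 0.0288). Of the 16, 15 were higher without overlap, with a median of 0.76, against 0.49 between scrambled siRNA and control. Rtp4 and Ifi44, interferon-induced antiviral genes, were at 1.05 and 1.15 and at 0.597 and 0.546 FPKM under scrambled siRNA and at 3.17 and 3.12 and at 2.04 and 2.16 under Baf53b siRNA. Another 13 members were below the filter.

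Of the genes that carry the interferon signal, none of 17 tested members passed, 10 were higher without overlap, and their median was 0.30. Irf1, a transcription factor that binds interferon response elements, was at 3.60 and 3.46 FPKM in control, 3.54 and 3.77 under scrambled siRNA and 8.80 and 7.69 under Baf53b siRNA (log2 difference 0.99, limma adjusted p = 0.101). As for Irgm1, scrambled siRNA and control overlapped. Irf7, a factor that amplifies interferon production, was at 1.12 and 0.499 FPKM under scrambled siRNA and 3.59 and 2.38 under Baf53b siRNA (limma adjusted p = 0.338). The interferon genes on the list, Ifnb1 and Ifng, were scarcely seen. Ifnb1 was listed at 0 in all 6 libraries and Ifng at 0 in 5 and at 0.0424 FPKM in Baf53b replicate 2. Other interferon genes were not looked up.

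Nucleic acid sensors and RNA interference genes are the first to meet a short RNA. None of 20 tested members was called and their median was 0.09, against 0.16 between scrambled siRNA and control. Of the 20, 9 were higher and 0 lower without overlap, beside 13.4% and 8.97% of all genes. Tlr2 and Tlr9, Toll-like receptors for bacterial lipoproteins and unmethylated DNA, and Aim2, a sensor of cytosolic DNA, were among the 4 members with an unadjusted p under 0.05. Aim2 was at 2.06 and 2.48 FPKM under scrambled siRNA and 3.91 and 4.42 under Baf53b siRNA (limma adjusted p = 0.834), and Tlr2 at 1.28 and 1.20 and at 3.08 and 1.94.

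The complement list held C3, the central protein of the cascade, and C4b, which acts upstream of it, among its 14 tested members. Both rose, 11 were higher and 1 was lower without overlap, and the median was 0.84 (0.56 between scrambled siRNA and control). C3 was at 0.242 and 0.206 FPKM in control, 0.946 and 0.397 under scrambled siRNA and 9.99 and 11.2 under Baf53b siRNA (log2 difference 2.81, SE 0.20, limma adjusted p = 0.0117). C4b (ENSMUSG00000073418.4, chr17:34728380-34743882, minus strand) was at 3.12 and 2.58, 8.70 and 7.004, and 27.4 and 26.2 FPKM. For both, the 2 scrambled libraries lay above the 2 control libraries, with means of 0.224 and 0.671 FPKM for C3 and 2.85 and 7.85 FPKM for C4b in control and scrambled siRNA. Reads of C4b and its copy C4a may be shared. Serping1, the inhibitor of the first complement component, was at 1.12 and 0.912 FPKM under scrambled siRNA and 5.51 and 4.49 under Baf53b siRNA (limma adjusted p = 0.0506). C1qc, part of that component and made by microglia, did not pass at 59.3 and 58.3 against 115 and 90.5 FPKM, and its control values were 28.0 and 26.2.

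Microglia markers were read in 3 lists. None of 15 homeostatic markers was called and 8 were higher without overlap (median 0.22, and 0.40 between scrambled siRNA and control). Among them was Cx3cr1, the fractalkine receptor gene, at 19.0 and 19.5 FPKM in control, 26.1 and 26.7 under scrambled siRNA and 40.003 and 34.95 under Baf53b siRNA. Their summed FPKM was 246 and 248.8 in control, 344 and 333 under scrambled siRNA and 467 and 416 under Baf53b siRNA. Ctss, a lysosomal protease gene of microglia and a disease-associated list member, was at 55.5 and 64.5 FPKM in control, 123 and 131 under scrambled siRNA and 256 and 232 under Baf53b siRNA, with steps of 1.07 and 0.94 (limma adjusted p = 0.330 and 0.118). Of 23 disease-associated microglia genes 2 rose and 20 were higher without overlap (median 0.80). Cst7, a cysteine protease inhibitor, was at 0.236 and 0.294 FPKM under scrambled siRNA and 4.14 and 3.02 under Baf53b siRNA, and Mpeg1 (ENSMUSG00000046805.9, chr19:12460779-12465284, plus strand), a pore-forming protein of macrophages, at 13.8 and 12.8 and at 32.7 and 31.1. For Mpeg1 control stood at 6.48 and 6.99 FPKM, so the steps were 0.89 and 1.20. Of 10 Fc receptor and phagocyte oxidase genes 1 rose, Cybb, the catalytic subunit of the oxidase, from 0.297 and 0.204 to 3.47 and 2.98 FPKM. All 10 were higher without overlap, with a median of 0.69, against 0.76 between scrambled siRNA and control. The microglia sums were higher where the called genes were higher, and their part in those results was not tested.

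Summed FPKM of leukocyte marker lists was higher under Baf53b siRNA than under scrambled siRNA, with a spread between the 2 Baf53b libraries. The 20 T and NK cell markers summed to 3.56 and 3.70 FPKM in control, 7.73 and 5.54 under scrambled siRNA and 27.7 and 13.9 under Baf53b siRNA. The 8 B cell markers summed to 4.63 and 4.37, 7.49 and 10.2, and 59.2 and 14.9 FPKM, and the 22 monocyte, neutrophil and dendritic cell markers to 31.7 and 30.1, 50.8 and 45.3, and 80.9 and 114. Lymphocyte sums were thus highest in Baf53b replicate 1 and the myeloid sum in replicate 2. The gap in the myeloid sum was nearly all due to 1 gene, Lyz2, at 27.1 and 59.6 FPKM in Baf53b replicates 1 and 2. Single members made up much of these sums. Igkc was at 38.1 FPKM in Baf53b replicate 1. Ly6c1, of the last list, was at 21.4 and 21.4 FPKM in control, 30.5 and 25.9 under scrambled siRNA and 32.7 and 28.5 under Baf53b siRNA. Whether these transcripts came from incoming cells was not tested. Lyz2, a lysozyme gene of myeloid cells, had 2.5005 and 1.42 FPKM in control, 7.78 and 7.94 under scrambled siRNA and 27.1 and 59.6 under Baf53b siRNA (log2 difference 2.22, limma adjusted p = 0.129). Plac8, expressed in monocytes and other leukocytes, was at 0.571 and 0.238 FPKM under scrambled siRNA and 2.60 and 2.83 under Baf53b siRNA (limma adjusted p = 0.0584). Only 3, 2 and 5 members of these lists passed the filter and none was called.

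Single transcripts, chosen for the plot after their values were seen, showed the same spread. Trac, the constant region of the T-cell receptor alpha chain, was at 0.799 and 0.674 FPKM under scrambled siRNA and 6.69 and 2.29 under Baf53b siRNA. Igkc, the constant region of the kappa light chain, was at 0 and 1.59 and at 38.1 and 3.26. Jchain, which joins secreted antibodies, was at 2.07 FPKM in Baf53b replicate 1 and between 0.256 and 0.388 in the other 5 libraries. Chil3, a chitinase-like protein of macrophages, was at 3.70 FPKM in Baf53b replicate 2 and at 0.0503 or less elsewhere, while the neutrophil gene Ly6g was listed at 0 in all 6. The immunoglobulin segment Igkv1-117 was called (0.0971 and 0.0714 FPKM under scrambled siRNA, 2.37 and 2.14 under Baf53b siRNA), and reads of such segments can be shared between copies. The part of leukocytes in the called differences was not tested.

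**Figure D3:**
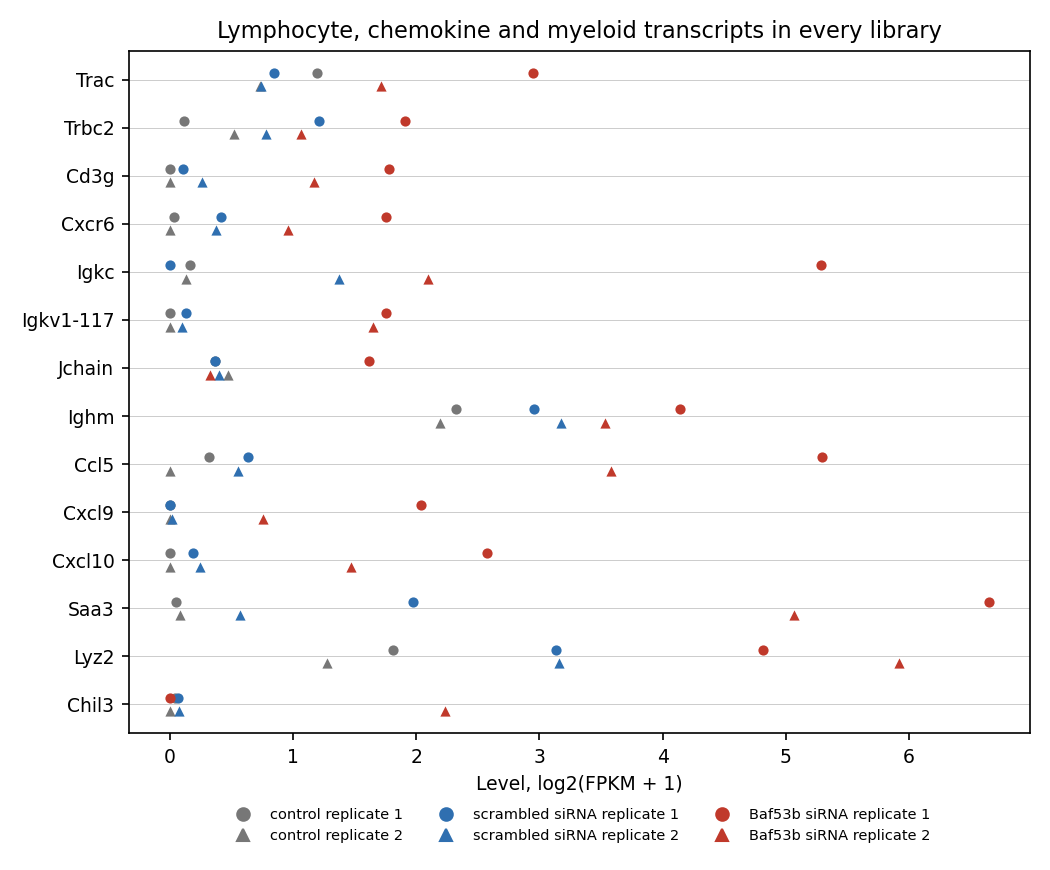
Levels of 14 lymphocyte, chemokine and myeloid transcripts in each of the 6 libraries on the x axis in log2(FPKM + 1), 1 row per gene; grey is control, blue scrambled siRNA and red Baf53b siRNA, circles replicate 1 and triangles replicate 2. Igkc and Jchain are high in Baf53b replicate 1 and Chil3 in Baf53b replicate 2.

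Chemokine ligands attract leukocytes, and none of 13 tested was called. Of the 13, 6 were higher and 3 lower without overlap, beside 13.4% and 8.97% of all genes, and their median was 0.53. Ccl5, a ligand for T cells and monocytes, had the largest difference (3.84, limma adjusted p = 0.0506), at 0.243 and 0 FPKM in control, 0.549 and 0.467 under scrambled siRNA and 38.2 and 10.96 under Baf53b siRNA. Cxcl16, the ligand of the receptor Cxcr6, was at 0.979 and 1.34 FPKM under scrambled siRNA and 4.94 and 3.43 under Baf53b siRNA. Cxcl10, an interferon-induced ligand, was at 0.138 and 0.186 and at 4.94 and 1.78, and listed at 0 in both control libraries. For all 3, Baf53b replicate 1 was the higher library.

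Astrocyte genes were read as a reactive and a homeostatic list, whose difference from each other was not tested. Of 18 tested reactive genes 1 rose and 13 were higher without overlap (median 0.93, and 0.20 between scrambled siRNA and control). Of 15 homeostatic markers 0 rose, 3 were higher and 1 lower without overlap (median -0.01). Over all genes 13.4% were higher and 8.97% lower without overlap. Gfap was at 16.9 and 18.3 FPKM in control, 45.1 and 47.3 under scrambled siRNA and 169.9 and 178 under Baf53b siRNA. The libraries within each group lay close together and the groups far apart (log2 difference 1.89, SE 0.13, limma adjusted p = 0.0112). Vim, the other main filament gene of reactive astrocytes, was at 11.99 and 14.6, 15.96 and 12.2, and 40.4 and 56.4 FPKM (limma adjusted p = 0.0506). Unlike for Gfap, its scrambled and control libraries overlapped. Saa3, an acute phase protein gene, had 2.92 and 0.482 FPKM under scrambled siRNA and 99.3 and 32.4 under Baf53b siRNA (log2 difference 4.59, limma adjusted p = 0.0506). Among homeostatic genes, the water channel gene Aqp4 was at 20.4 and 22.1 against 32.7 and 34.1 FPKM, and the glutamate transporter gene Slc1a3 at 177 and 168 against 204 and 206. By sign, however, 7 of the 15 were higher and 8 lower. Glul, the member of highest FPKM, was lower without overlap, at 352 and 349 against 345 and 319.

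**Figure D4:**
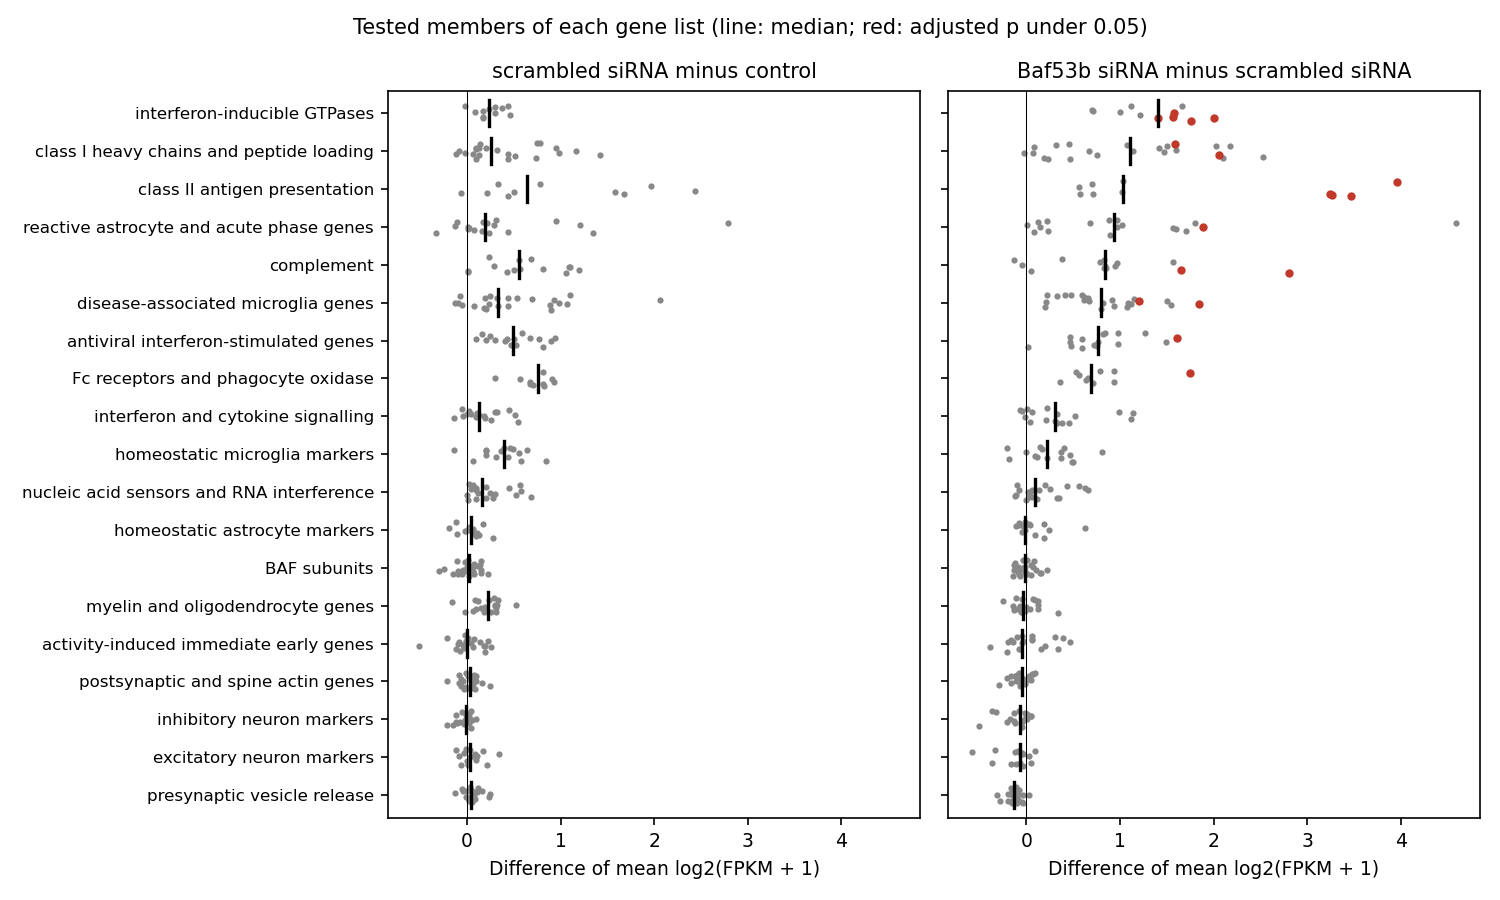
Differences of the tested members of 19 gene lists (rows) under scrambled siRNA minus control (left) and Baf53b siRNA minus scrambled siRNA (right) on the x axis in log2(FPKM + 1); each point is a gene, black lines are medians and red points passed at an adjusted p under 0.05. The panels share the scrambled libraries; the GTPase median is 0.24 on the left and 1.41 on the right, and the neuronal lists at the bottom lie near 0 in both.

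Neuronal and synaptic genes showed small differences, none of which passed. Medians were -0.07 for 17 excitatory neuron markers, -0.06 for 18 inhibitory neuron markers, -0.13 for 24 presynaptic genes and -0.05 for 26 postsynaptic and spine actin genes, with 4, 7, 9 and 3 members lower without overlap, against 8.97% of all genes. Of the presynaptic genes, 23 of 24 were lower by sign. Cplx1, a complexin that clamps vesicle fusion, was at 97.4 and 88.6 FPKM under scrambled siRNA and 85.0 and 68.6 under Baf53b siRNA, and Rph3a, a Rab3 effector, at 87.5 and 77.5 and at 70.8 and 61.8. The scaffold gene Shank1 was at 47.0 and 41.9 and at 36.1 and 36.2. Control values of Cplx1 (86.7 and 97.4) and Rph3a (64.4 and 83.6) overlapped with those of scrambled siRNA. The inhibitory neuron peptide gene Cort was at 2.18 and 2.28 against 1.16 and 1.39 FPKM, and Pvalb, a calcium buffer of fast-spiking interneurons, at 8.11 and 7.74 against 6.08 and 6.22.

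Activity-induced immediate early genes, which mark recent firing, had a median of -0.04 over 20 tested members. None was called and 3 were higher without overlap, beside 13.4% of all genes. Fos was at 3.58 and 2.83 FPKM under scrambled siRNA and 5.21 and 4.41 under Baf53b siRNA (limma adjusted p = 1), with 3.42 and 2.71 in control. Myelin and oligodendrocyte genes (20 tested, median -0.03) and endothelial and mural markers (17 tested, median 0.17) held no called gene either. Vcam1, a vessel adhesion molecule that captures leukocytes, was at 11.6 and 11.7 FPKM under scrambled siRNA and 15.6 and 15.6 under Baf53b siRNA (limma adjusted p = 0.954). Among 14 DNA damage and cell death genes 0 were called and 7 were higher without overlap (median 0.20). They included Hmox1, the stress-induced haem oxygenase, at 1.92 and 1.65 against 3.10 and 4.41 FPKM, and Gsdmd, the pore former of inflammatory cell death, at 1.22 and 1.24 against 2.76 and 2.39.

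On the lower side no gene passed, and the smallest adjusted p among the genes picked by the naming rule, which leaves out short RNA genes, was 0.711 (Fgf9, limma). Fgf9, a growth factor gene, was at 3.35 and 3.85 FPKM in control, 4.67 and 4.82 under scrambled siRNA and 3.06 and 3.01 under Baf53b siRNA. Fgf1, also a growth factor gene, was at 12.7 and 11.1, 23.8 and 15.3, and 12.2 and 9.46. In both the scrambled libraries were the highest, so the Baf53b libraries lay nearer to control. The choice of these genes favours this order, since they were picked as lower than the same scrambled libraries. The same order held for Ccdc91, which encodes a trafficking adaptor (15.1 and 15.2, 45.6 and 17.9, and 13.8 and 11.2 FPKM), and for Adamts17, a secreted protease gene (1.05 and 0.973, 1.497 and 1.69, and 0.855 and 0.827). The scrambled values of Ccdc91 had intervals as wide as those of 5.31 and 10.8 fragments, and those of Adamts17 as wide as 9.49 and 6.002 fragments. Emx2, a forebrain homeobox gene, was at 4.68 and 5.47, 4.31 and 5.28, and 3.12 and 2.97 FPKM, with control and scrambled libraries overlapping. The remaining genes that the naming rule picked on this side were Mycbp (log2 difference -0.90), Cdpf1 (-0.51), Pcca (-0.52), Diras2 (-0.55), B3gnt2 (-0.73) and Mrm1 (-0.76), none of which passed (limma adjusted p of 0.797 or more). The short Y RNA gene Rny3, named after its values were seen, was listed at 0 in both Baf53b libraries and in control replicate 1, with 31.8 FPKM in control replicate 2 and 222 and 85.9 under scrambled siRNA (limma adjusted p = 0.254, and 0.00719 and 0.00725 without control replicates 1 and 2). Each of its 3 values above 0 had an interval as wide as that of 1 fragment, so these levels are poorly determined.

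The 2 Baf53b libraries differed from each other to an extent that varied between gene lists. Replicate 1 was above replicate 2 in 8914 of 14754 genes and in 15 of the 21 called genes. It was above in 10 of 10 class II and 22 of 22 class I genes. The same held for 23 of 30 BAF subunits, 20 of 24 presynaptic genes and 23 of 26 postsynaptic and spine actin genes. It was above in 6 of 16 antiviral genes and 4 of 17 endothelial and mural markers. Between the scrambled libraries, replicate 1 was above replicate 2 in 10057 of 14754 genes. By list these were 7 of 10 class II, 15 of 22 class I, 12 of 16 antiviral and 10 of 17 endothelial and mural genes. The cause was not tested. C920009B18Rik, a transcribed pseudogene (ENSMUSG00000097352.7, chr10:22306702-22321765, plus strand), had the largest called difference, at 0.209 and 0.182 FPKM under scrambled siRNA and 31.7 and 18.8 under Baf53b siRNA (4.41, SE 0.26, limma adjusted p = 0.00829). Its deposited intervals, however, were as wide as those of 0.612 and 0.520 fragments in the Baf53b libraries, so its level is poorly determined despite the adjusted p. By the same measure the intervals of Gfap were as wide as those of 617 to 2052 fragments per library, and those of Irgm1 as wide as 96.8 to 368.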

How the data were processed

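Each library has a table in which the authors deposited, per the file headers, a gene's FPKM, an interval around it and a status. The submitters' processing notes name TopHat2 2.1.1, Cufflinks 2.2.1, bcl2fastq 2.19.1.403 and the build mm10, and the sources used here give no annotation release or settings, strand included. Rows of 48 gene IDs were summed, and 50160 of 50383 IDs matched GENCODE M21, which gave gene types. Fragment numbers were inferred from the interval, 2 standard errors of a count being set equal to its half-width. Values were log2(FPKM + 1) with a pseudocount of 1. All 6 libraries were fitted in R 4.3.3 by limma 3.58.1 (trended eBayes, 3 residual degrees of freedom, prior 3.98), two-sided, with Benjamini-Hochberg adjustment over 14754 genes at 0.05. On simulated data 82.6% of 2-fold and 99.5% of 4-fold changes were recovered (200 changed genes, 20 datasets), and 6.95% of calls were false. The noise was independent between libraries, and only genes above about 5 FPKM were changed. These shares therefore do not give the power in the real libraries or for genes at lower levels. Named were Actl6b and Actl6a, all called genes and the 10 lower genes of smallest unadjusted p that differed by at least 0.3 without overlap. The 5 largest differences per direction, also without overlap, and up to 4 members per list were added. Predicted genes, pseudogenes and short RNA genes took no place in the lower and largest groups. The members and lists were chosen with earlier results of these data known. Tested alternatives were the pseudocount, the filter, the scaling, the set of libraries and the replicate block.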

Additional observations from a re-analysis of the deposited data

Results flagged for a closer look

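The tables hold 92 rows of synthetic spike-in RNA that the labels do not mention and that entered no comparison. Their summed FPKM was 117 and 125 in the control libraries. It was 207.2 in scrambled siRNA replicate 1, 656.2 in scrambled siRNA replicate 2, 4825 in Baf53b siRNA replicate 1 and 811.4 in Baf53b siRNA replicate 2, each above both control libraries. These sums were between 0.0340% and 0.755% of the FPKM of the 4 siRNA libraries, and between 0.0191% and 0.0195% in control. Their part in the differences between groups was not tested.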

How the results depend on the processing

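The 21 genes called between the siRNA groups became 1 at pseudocount 0.1, 0 when no filter removed low values (1193 higher and 277 lower at an unadjusted p under 0.05 in limma), 9 when the filter was raised to a mean of 5 FPKM, 5 if small RNA genes stayed in (4 higher and 1 lower) and 33 with robust eBayes. The count ranged from 7 to 37 with a library left out; 7 comprised 2 higher and 5 lower genes. It was 17 to 29 under 6 other settings (pseudocount 0.5, a filter over all 6 libraries, a fit of the 4 siRNA libraries, and 3 other scalings). With the replicate number as a block 13 genes were called, 10 of the 21 among them; the 11 that lost their call, Irgm1, Gbp2 and H2-Eb1 included, had adjusted p of 0.0549 to 0.0978 in limma. The labels do not say that numbers pair libraries, of which there are 2 pairs per comparison; deviations of same-numbered scrambled and Baf53b libraries correlated at 0.350, those of control with scrambled at 0.398 and of control with Baf53b at 0.180. For scrambled siRNA against control the count was 0 in every setting that kept all libraries, and 0 to 8 with a library left out. The contrast of the 2 steps gave 0, 1 if small RNA genes stayed in, and 0 to 9 with a library left out. Actl6a, at 0.22, reversed to -0.0402 without scrambled siRNA replicate 2 and was 0.482 without scrambled siRNA replicate 1. Camk2a, at -0.09, was -0.235 to 0.0535 with a library left out, and reversed without scrambled siRNA replicate 1 (0.016) and without Baf53b siRNA replicate 2 (0.0535). Of the other values of 72 named genes over 18 settings, 1056 kept direction and call, 172 lost a call and 31 gained one. Causes were not tested. With 2 libraries per group and no read counts, genes near 1 FPKM are the least certain, and the 95% interval of Actl6b leaves a fall of up to 23.3% possible.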
